A study of Mus musculus with 12 samples.

Results

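The mouse heart holds its contractile filaments in fetal and adult versions, and 10 genes that make up 5 such pairs are described here: the myosin heavy chains Myh7 and Myh6, the inhibitory troponins Tnni1 and Tnni3, the sarcomeric actins Acta1 and Actc1, the regulatory light chains Myl7 and Myl2, and the essential light chains Myl4 and Myl3. Members were chosen by symbol alone, and all 10 were found among the 46983 symbols of each of the 2 deposited tables. Libraries came from 12 samples in 4 groups of 3, made from hearts of BL6/C57 mice that had been split into cardiomyocytes (CM) and the other cells of the heart (NonCM). Control mice were MCM/+ and the other mice were MCM/+ Wls fl/fl, written Wls fl/fl below. All 12 samples shared MCM, the usual short name of the tamoxifen-activated Cre recombinase MerCreMer, 3 doses of tamoxifen given from P1 to P3, a myocardial infarction at P2 and collection 2 weeks later. None of these groups is uninjured and none carries the floxed allele without MCM, and the sources used here do not name the promoter that drives MCM. The labels call the cells adult, although the stated schedule puts collection in the 3rd week of life, and they do not say which CM and NonCM libraries came from the same heart. Replicate numbers follow the order of deposition and are names only, and a p-value reflects the spread between libraries, which may be technical.

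In the rodent ventricle the slow heavy chain Myh7, the slow skeletal troponin Tnni1 and the skeletal actin Acta1 are abundant before birth and give way to Myh6, Tnni3 and Actc1 as the heart matures. Myl7 and Myl4 are made in the whole early heart and later mainly in the atria, whereas Myl2 and Myl3 are the ventricular light chains. Stressed or failing ventricle often raises the fetal members again, which is why these pairs serve as a gauge of cardiomyocyte maturity. Wls carries Wnt proteins to the cell surface, so its loss limits Wnt secretion from the cells that lose it.

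Most of the pairs are dispersed in the genome (GRCm38, GENCODE M21). Myh6 (chr14:54941921-54966927) and Myh7 (chr14:54970684-54994626) lie in tandem on the minus strand, separated by 3756 bases. Tnni1 is at chr1:135779434-135810989 (+) and Tnni3 at chr7:4518305-4524229 (-). Acta1 is at chr8:123891769-123894751 (-) and Actc1 at chr2:114047282-114053548 (-). The light chain genes are Myl2 at chr5:122100951-122113472 (+), Myl3 at chr9:110741861-110769798 (+), Myl4 at chr11:104550663-104595753 (+) and Myl7 at chr11:5896637-5898782 (-). Of the 50-base windows of the principal Myh7 transcript, 22.2% also occur in Myh6 (22.6% the other way), so a read of that length from those stretches cannot be assigned to either gene, and how the counting treated them is unknown here. The other 4 pairs share 0% of such windows.

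Promoters are shown for 5 members that stand for the 3 patterns of the NonCM results below: the heavy chains, which fell together, the actins, whose groups overlapped, and Myl7, which varied between libraries. Each is the 250 bases before the RefSeq gene start (GRCm38.p6), written 5′ to 3′ on the gene's strand. Capitals mark the CArG box, the site of serum response factor, the motif CATTCC on either strand, the M-CAT site of TEAD factors, or TATAAA. The windows are chr14:54966608-54966857 (-) for Myh6, chr14:54994627-54994876 (-) for Myh7, chr8:123894776-123895025 (-) for Acta1, chr2:114052876-114053125 (-) for Actc1 and chr11:5898783-5899032 (-) for Myl7.
Myh6: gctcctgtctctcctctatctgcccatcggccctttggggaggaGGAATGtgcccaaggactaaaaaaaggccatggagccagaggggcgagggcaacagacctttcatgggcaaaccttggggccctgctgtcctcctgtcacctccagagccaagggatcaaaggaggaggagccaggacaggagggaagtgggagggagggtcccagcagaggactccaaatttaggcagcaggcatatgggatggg
Myh7: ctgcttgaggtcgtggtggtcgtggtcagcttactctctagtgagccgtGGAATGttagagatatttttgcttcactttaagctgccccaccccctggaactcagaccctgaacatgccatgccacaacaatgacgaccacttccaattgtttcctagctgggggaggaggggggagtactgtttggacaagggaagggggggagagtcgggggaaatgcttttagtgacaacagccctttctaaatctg
Acta1: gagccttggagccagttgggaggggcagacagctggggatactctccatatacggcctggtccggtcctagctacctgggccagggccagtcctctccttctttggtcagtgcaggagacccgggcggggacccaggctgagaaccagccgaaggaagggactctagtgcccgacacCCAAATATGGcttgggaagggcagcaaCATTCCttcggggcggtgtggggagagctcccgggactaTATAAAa
Actc1: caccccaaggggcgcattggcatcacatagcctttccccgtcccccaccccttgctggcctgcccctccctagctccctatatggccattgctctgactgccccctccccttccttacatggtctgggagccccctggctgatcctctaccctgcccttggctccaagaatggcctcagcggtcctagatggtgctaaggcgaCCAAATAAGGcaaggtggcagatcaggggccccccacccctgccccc
Myl7: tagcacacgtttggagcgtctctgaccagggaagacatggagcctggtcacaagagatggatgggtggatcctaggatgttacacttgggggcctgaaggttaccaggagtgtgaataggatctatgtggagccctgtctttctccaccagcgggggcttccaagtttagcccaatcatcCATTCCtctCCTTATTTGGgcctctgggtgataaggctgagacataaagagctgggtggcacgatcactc
The Myh6 and Myh7 windows hold CATTCC on the opposite strand, 206 to 201 and 201 to 196 bases before the start. The actin windows both hold a CArG box, 73 to 64 bases before the start of Acta1 and 47 to 38 before that of Actc1, and Acta1 also has CATTCC at 46 to 41 and TATAAA at 7 to 2, with its GENCODE start 24 bases from the RefSeq one. Myl7 has CATTCC at 70 to 65 and a CArG box at 61 to 52. Over the 10 members, searched on both strands with no motif overlapping another, 4 had a CArG box (Acta1, Actc1, Myl3, Myl7), 5 had CATTCC (Myh6, Myh7, Acta1, Myl3, Myl7), TATAAA was present in 2 (Acta1, Myl2) and 0 had a MEF2 box. Some RefSeq windows lie away from the GENCODE principal start: by 26322 bases for Myl4, 7794 for Myl2 and 322 for Tnni1, so their matches describe another start, while the other 7 lie within 34 bases. Among 32851 promoter windows of the same length the shares were 1.47% for the CArG box, 12.6% for CATTCC, 12.4% for TATAAA and 2.92% for the MEF2 box. These are matches of letters and not shown to be bound.

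Reads recovered from the tables numbered 5171769 to 9775856 per CM library and 8608352 to 10281214 per NonCM library, except for NonCM control replicate 1 with 1160146, in which 1 read equals a normalized read count of 5.54. In each group replicate 3 lay close to a weighted mean of replicates 1 and 2: over 6331 to 8941 genes its variance around that mean was 1.02 to 1.08 times the counting variance, against 1.18 to 2.27 times for replicates 1 and 2 treated alike. These values leave out the genes farthest from the mean and use the weight that made each value smallest, and both steps lower them. The tests below treat replicate 3 as a separate library, and if it is not, their intervals and errors are too narrow. Without replicate 3 of both genotypes, limma, the test used within each fraction, called 2 genes in CM and 0 in NonCM, and the members' values without it are given below. Wls itself had a mean normalized read count of 218 ± 22.1 among CM controls, against 80.9 ± 20.5 among CM Wls fl/fl libraries (SD, n = 3 each), and in NonCM 403 ± 26.9 and 332 ± 21.4. Summed over 16 cardiomyocyte markers, none of them among the 10 genes, the share of reads was 3.79% ± 0.0746 for control and 3.88% ± 0.115 for Wls fl/fl in CM, and 2.51% ± 0.142 for control and 2.15% ± 0.0829 for Wls fl/fl in NonCM. The NonCM fraction thus held much cardiomyocyte RNA, together with 9 fibroblast markers at 0.913% ± 0.00744 of reads among controls, against 1.38% ± 0.0522 among Wls fl/fl libraries. In such bulk samples, fewer cells of a type and less RNA per cell cannot be told apart.

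The adult members dominated every library. Per length, in RPKM (reads per kilobase of the principal transcript, scaled to library depth), Myh6 was first in the CM control group at 6950 ± 87.1 (SD, n = 3), followed by Myl2 at 5074 ± 139, Actc1 at 4868 ± 254, Myl3 at 4650 ± 228 and Tnni3 at 3556 ± 107. Much lower came Myh7 at 179 ± 3.85, Acta1 at 60.6 ± 10.4, Myl7 at 22.6 ± 6.68, Myl4 at 13.5 ± 1.22 and Tnni1 at 0.627 ± 0.187. The library ranges of Myl2 and Actc1 overlapped, as did those of Actc1 and Myl3, while all other neighbours in this order stood apart. In NonCM control libraries the first 5 were Myh6 at 4524 ± 305, Myl2 at 3933 ± 233, Myl3 at 3173 ± 145, Actc1 at 3027 ± 177 and Tnni3 at 2343 ± 129, with only Myl3 and Actc1 overlapping among these. Myl7 stood at 44.1 ± 12.8 there and Acta1 at 37.2 ± 3.44, and their ranges overlapped. Together the 10 genes took 6.30% ± 0.0800 of reads in CM control and 4.15% ± 0.245 in NonCM control libraries.

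**Figure D1:**
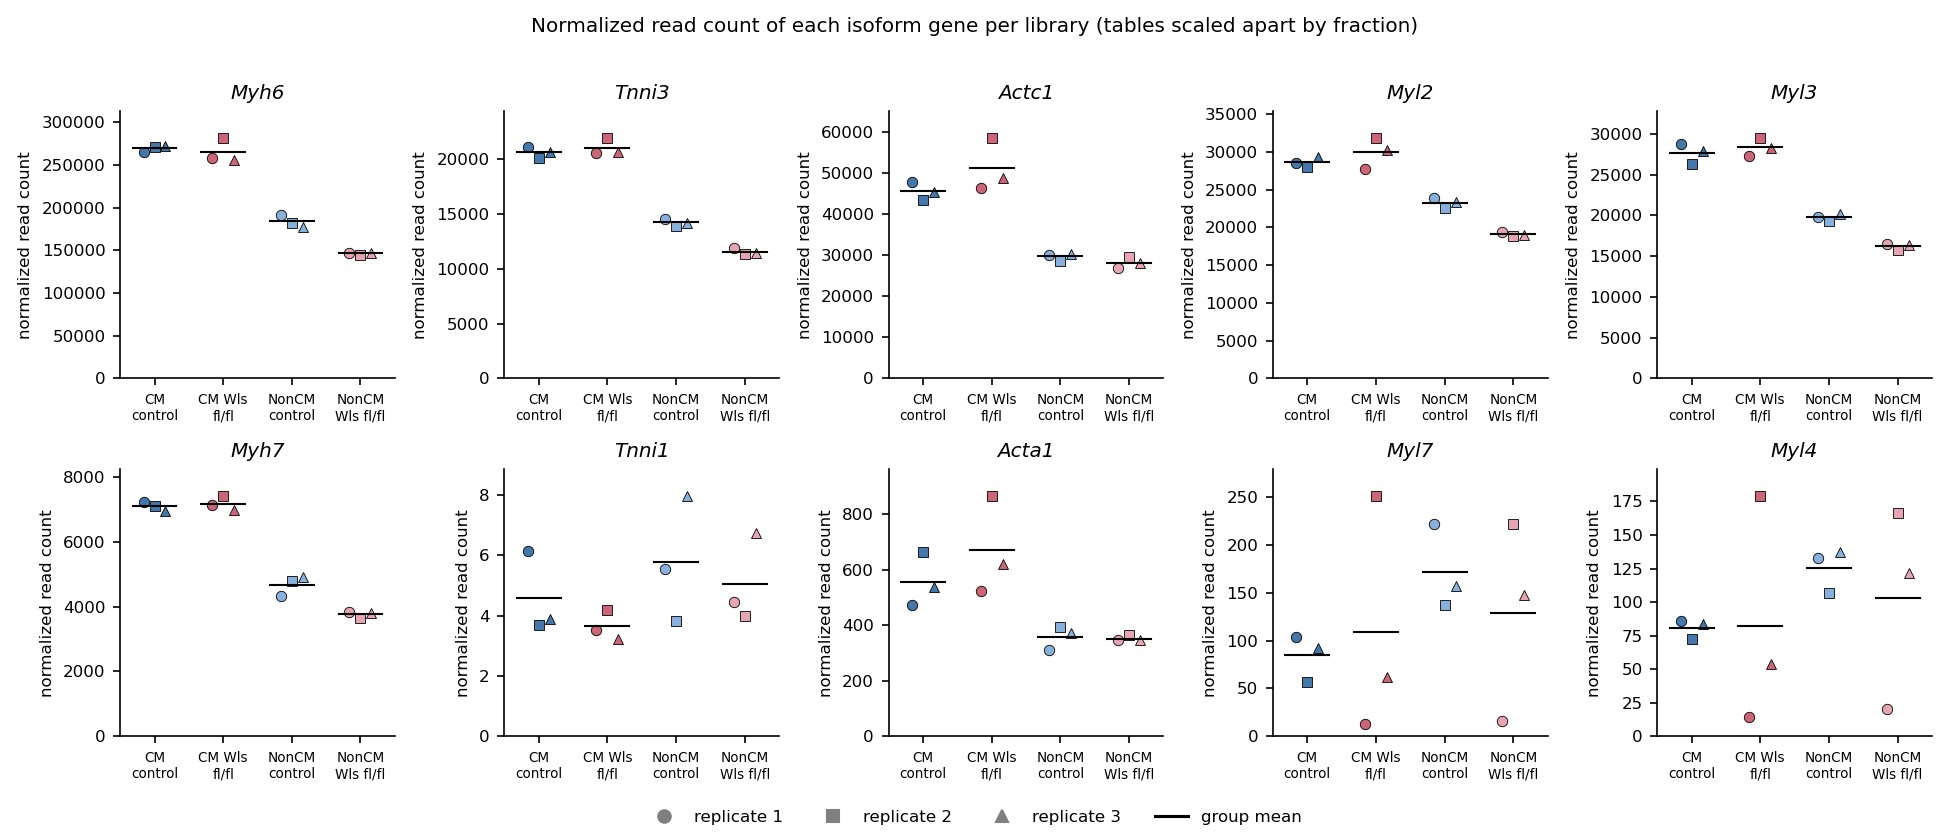
Normalized read count (linear axes from 0) of each of the 10 genes in the 12 libraries, with symbols for replicates and a bar for the group mean; the CM and NonCM tables were scaled apart. In NonCM, Myh6, Myh7, Tnni3, Myl2 and Myl3 are lower in all 3 Wls fl/fl libraries, and Myl4 and Myl7 spread widely within the Wls fl/fl groups.

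In the CM fraction, where Wls itself was lower, the design asks whether Wls fl/fl cardiomyocytes differ in these isoforms. None of the 9 members tested differed by genotype (limma, Benjamini-Hochberg adjusted p of 0.05 as the threshold), where 0.0921% of 11944 genes did. At an unadjusted p under 0.05 there were 0 members, against 1044 of the 11944 genes (8.74%). Actc1 lay just above that limit (limma unadjusted p = 0.0505) and below it by edgeR (0.0330) and DESeq2 (0.0281). All 10 members overlapped between the groups, whereas 15% of genes tested did not. The median change of the members was 0.03 on the log2 scale, against 0.00 over all genes tested. edgeR and DESeq2 also called 0 members, and so did limma without replicate 3, with changes of -0.62 for Myl4 to 0.27 for Acta1 and adjusted p-values of 0.980 and above.

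Myh6, the fast heavy chain of adult mouse heart, had normalized read counts of 265583, 270908 and 272918 among CM controls, against 258609, 281858 and 256516 among CM Wls fl/fl libraries. The Wls fl/fl libraries lay on both sides of the control ones, and the log2 change was -0.02 (95% interval -0.14 to 0.09, limma adjusted p = 0.930). Myh7, its slow fetal counterpart, read 7236, 7092 and 6955 among controls, against 7129, 7420 and 6993 among Wls fl/fl libraries, a change of 0.02 (interval -0.07 to 0.11, limma adjusted p = 0.939). With replicate 3 counted as a separate library, the intervals of both heavy chains stayed within 0.14 log2 units of 0. Without replicate 3 the changes were 0.01 for Myh6 and 0.02 for Myh7, and their intervals are not given here.

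Tnni3, the adult cardiac troponin I, had a log2 change of 0.03 (95% interval -0.07 to 0.12, limma adjusted p = 0.888) around control counts of 20048 to 21109. Tnni1, the fetal troponin I, had 13 reads in all 3 CM control libraries together and 12 in the Wls fl/fl ones, at normalized read counts of 3.70 to 6.13 and 3.24 to 4.17. It was too low for the test, which required a mean of 10, and a difference was not detectable at this depth.

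Actc1, the main actin of the adult heart, stood at 47740, 43383 and 45457 among CM controls, against 46245, 58495 and 48807 among CM Wls fl/fl libraries. Acta1, the skeletal actin of the fetal heart, stood at 471, 664 and 536 and at 524, 866 and 620. For both actins the highest library was Wls fl/fl replicate 2, and the lowest was a control library. Their changes of 0.16 (SE 0.07, limma adjusted p = 0.571) and 0.25 (SE 0.16, limma adjusted p = 0.689) did not pass the test. Without Wls fl/fl replicate 2 the changes were 0.06 for Actc1 and 0.05 for Acta1, and without Wls fl/fl replicate 1 they were 0.23 and 0.41 (limma adjusted p of 0.531 to 0.959).

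Of the ventricular light chains, Myl2 had a log2 change of 0.06 (95% interval -0.05 to 0.18) and Myl3 of 0.04 (interval -0.07 to 0.14) in CM, with limma adjusted p-values of 0.762 and 0.870. The atrial light chains were low and uneven. Myl7 had normalized read counts of 104, 56.8 and 92.4 among controls, against 12.9, 251 and 62.1 among Wls fl/fl libraries. Myl4 had 85.8, 72.8 and 83.7 among controls, against 14.1, 179 and 53.7 among Wls fl/fl libraries. The 3 Wls fl/fl libraries thus enclosed the control range for both genes, and the changes of -0.45 (SE 0.72) and -0.62 (SE 0.61) did not pass (limma adjusted p = 0.897 and 0.807). Their direction rested on Wls fl/fl replicate 1: without it the changes were 0.61 for Myl7 and 0.28 for Myl4.

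Outside the members, limma called 0 genes of any related list in CM. Of the 24 other structural genes of the sarcomere, 5 had an unadjusted p under 0.05, where 8.74% of all genes tested did, and the 2 lowest were Myom2, an M-band protein, with a log2 change of -0.26 (limma adjusted p = 0.0502), and Tcap, the titin cap of the Z-disc, with -0.25 (limma adjusted p = 0.0638). Myom2 read 22448, 24242 and 23194 among controls, against 19722, 19049 and 19378 among Wls fl/fl libraries, and Tcap read 3111 to 3262 and 2629 to 2710. Neither overlapped between groups and neither passed the threshold. Without replicate 3 their changes were -0.27 and -0.22 (limma adjusted p = 0.980 for each). Among other developmental isoforms, the adult cytochrome oxidase subunit Cox7a1 had a change of 0.25 (limma adjusted p = 0.0604) and the fetal ADP/ATP carrier Slc25a5 one of 0.20 (0.399).

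**Figure D2:**
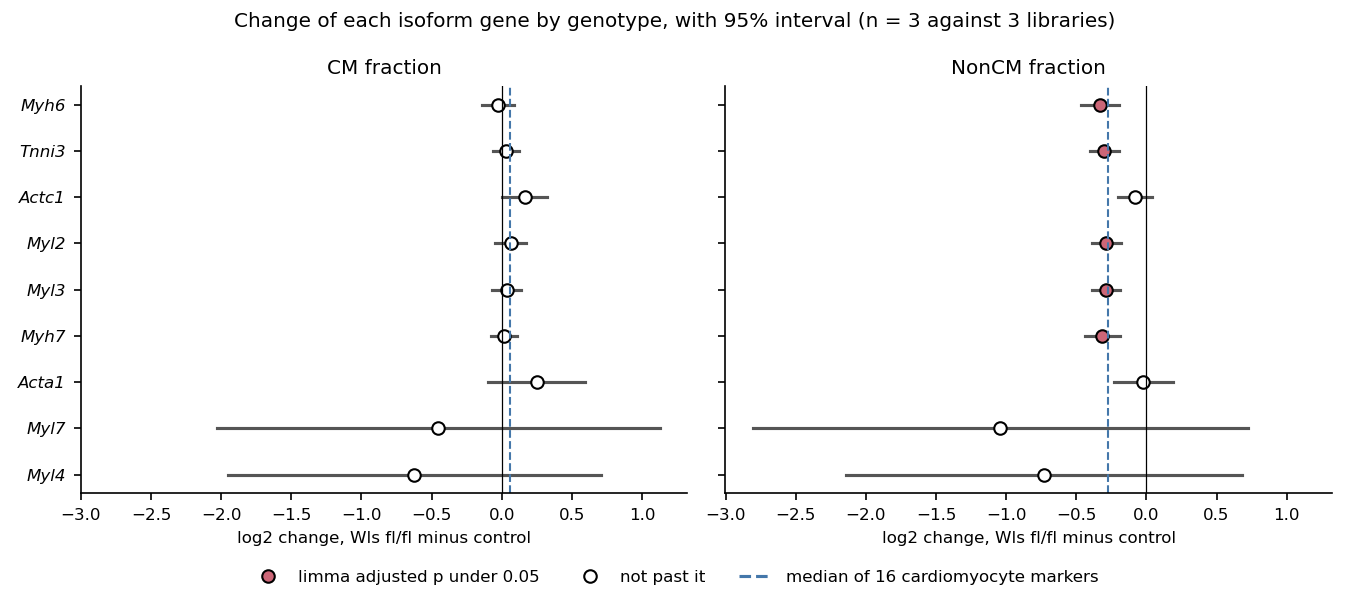
Log2 change (Wls fl/fl minus control, horizontal axis) of the 9 members tested in each fraction, with 95% intervals from limma; filled points passed the adjusted threshold and the dashed line is the median of 16 cardiomyocyte markers. The 5 filled points, all in NonCM, lie between -0.33 and -0.29 and beside the marker median of -0.27, and the intervals of Myl4 and Myl7 are the widest in both panels.

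In the NonCM fraction, 5 of the 9 members tested fell in Wls fl/fl libraries and 0 rose, where limma called 4.51% of 13271 genes, 2.03% lower and 2.47% higher. The 5 were the adult members Myh6, Tnni3, Myl2 and Myl3 and the fetal heavy chain Myh7, and their falls of 0.29 to 0.33 on the log2 scale were alike. The same 5 did not overlap between groups, as was the case for 12.6% of genes tested in this direction. The median change of the members was -0.30, against 0.02 over all genes tested. 11 of the 16 cardiomyocyte markers fell too, with a median of -0.27, and 7 of 9 fibroblast markers and 1 of 7 macrophage markers rose.

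Myh6 had normalized read counts of 191693, 182284 and 177774 among NonCM controls, against 147396, 144925 and 146967 among NonCM Wls fl/fl libraries. Every Wls fl/fl library was below every control library, and the change was -0.33 (SE 0.06, limma adjusted p = 0.0207). Myh7 had 4341, 4802 and 4909 among controls, against 3833, 3660 and 3802 among Wls fl/fl libraries. Its fall, by 0.31 (SE 0.06, limma adjusted p = 0.0183), was in the same direction as that of its adult partner.

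Tnni3 went from 14552, 13881 and 14194 among NonCM controls to 11872, 11320 and 11432 among NonCM Wls fl/fl libraries, with no overlap and the smallest p of the members (change -0.30, SE 0.04, limma adjusted p = 0.00929). Myl2 had 23865, 22547 and 23342 and then 19343, 18893 and 18978, a change of -0.29 (limma adjusted p = 0.0124). Myl3 had 19868, 19301 and 20165 and then 16505, 15759 and 16340, also a change of -0.29 (limma adjusted p = 0.0120). In both ventricular light chains the 3 Wls fl/fl libraries lay close together and below the control range.

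The actins gave no call in NonCM. Actc1 read 30096, 28514 and 30356 among NonCM controls, against 26757, 29442 and 28037 among NonCM Wls fl/fl libraries, a change of -0.08 (95% interval -0.20 to 0.04, limma adjusted p = 0.470). Acta1 read 310, 395 and 372 among controls, against 345, 365 and 345 among Wls fl/fl libraries, a change of -0.02 (interval -0.23 to 0.19, limma adjusted p = 0.923). In both genes the groups overlapped.

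Nor did the atrial light chains pass. Myl7 had 222, 137 and 157 among controls, against 15.9, 222 and 147 among Wls fl/fl libraries (change -1.04, SE 0.78, limma adjusted p = 0.512). Myl4 had 133, 107 and 138 and then 20.3, 166 and 122 (change -0.73, SE 0.62, limma adjusted p = 0.569). NonCM Wls fl/fl replicate 1 was far below the rest, and without it the changes were 0.10 and 0.19. Tnni1 had 17 reads among NonCM controls, against 22 among NonCM Wls fl/fl libraries, and was not tested.

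The NonCM calls depended on which libraries were used. Leaving out the third control library, or the second or the third of Wls fl/fl, left limma with 0 of the 5. With replicate 3 removed from both genotypes it called 0 of 13278 genes (1242 had an unadjusted p under 0.05), and the 5 members had changes of -0.35 to -0.28 and limma adjusted p-values of 0.450 to 0.506. edgeR on the same libraries called 38 genes and 0 members, with adjusted p-values of 0.179 to 0.284.

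Whether the genotype change differed between CM and NonCM was tested as an interaction term in edgeR, which called 1.41% of 13993 genes. The change was lower in NonCM than in CM for 5 of the 9 members: Myh6 by -0.32 (adjusted p = 0.0299), Myh7 by -0.35 (0.0332), Tnni3 by -0.35 (0.0299), Myl2 by -0.37 (0.0299) and Myl3 by -0.34 (0.0307) on the log2 scale. Differences of -0.38 for Acta1 and -0.27 for Actc1 did not pass (edgeR adjusted p = 0.416 and 0.220), nor did those of Myl4 and Myl7 (0.929 and 0.841). Without replicate 3 of all groups 0 members passed, at differences of -0.39 for Myh6, -0.33 for Myh7, -0.36 for Tnni3, -0.38 for Myl2 and -0.34 for Myl3, with an edgeR adjusted p of 0.734 for each. Leaving out single libraries, 0 passed without CM control replicate 3, CM Wls fl/fl replicate 3, NonCM control replicate 3, NonCM Wls fl/fl replicate 2 or NonCM Wls fl/fl replicate 3, and 1 passed without CM control replicate 2.

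Since cardiomyocyte markers moved in the same direction, each member was also expressed as a percentage of the 16 markers summed in the same library. The sum weighs most on Atp2a2, Mb, Pln and Ryr2, with mean NonCM counts of 55133, 26425, 25776 and 15337. In CM, 5 of the 16 markers had an unadjusted limma p under 0.05, where 8.74% of genes tested did. As a percentage of the summed markers, Myh6 stood at 110% ± 3.64 among NonCM controls, against 105% ± 3.99 among NonCM Wls fl/fl libraries (SD, n = 3 each), and the groups overlapped. The changes of the 5 members that had fallen were then -0.07 to -0.03, and limma on values scaled to equal summed markers called 0 of them. That scaling moved the whole table: limma then called 3560 of 13285 genes, 3539 of them higher in Wls fl/fl libraries, and the median change of all genes was 0.27. Tnni3 alone of these 5 did not overlap, at 8.51% ± 0.0472 and 8.27% ± 0.163 (log2 difference -0.04, or -0.05 without replicate 3, exact permutation p = 0.1, the smallest that 3 against 3 libraries allow, and 0.75 after adjustment over 20 comparisons).

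Actc1 relative to the markers did not overlap between genotypes in NonCM but did in CM. The share of all genes that did not overlap on this scale is not given here. Whether the lack of overlap sets Actc1 or Tnni3 apart from other genes was therefore not tested. Actc1 stood at 17.6%, 17.6% and 18.1% of the markers among NonCM controls, against 18.2%, 21.8% and 20.4% among NonCM Wls fl/fl libraries. All 3 Wls fl/fl libraries were above the control range, replicate 1 only just, and the log2 difference was 0.18 (SE 0.08, exact permutation p = 0.1, adjusted p = 0.75). On values scaled to equal summed markers limma gave 0.18 as well, with an adjusted p of 0.0620, below the median of 0.27 over all genes on that scale. Without replicate 3 the difference relative to the markers was 0.18 in NonCM and 0.14 in CM. In CM, Actc1 stood at 19.5%, 18.3% and 18.9% and at 19.0%, 22.9% and 20.2%, a difference of 0.13 (SE 0.08) with overlapping groups (exact permutation p = 0.2). Acta1 had differences of 0.24 (SE 0.14) in NonCM and 0.21 (SE 0.25) in CM, also with overlap. The sign of both actin values in NonCM therefore depended on the scale, negative on the deposited one and positive relative to the markers. On the deposited scale that of Acta1 also turned without replicate 3, to 0.020. None of these differences passed a test, and the exact permutation test, which cannot go below 0.1, could not have passed any.

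**Figure D3:**
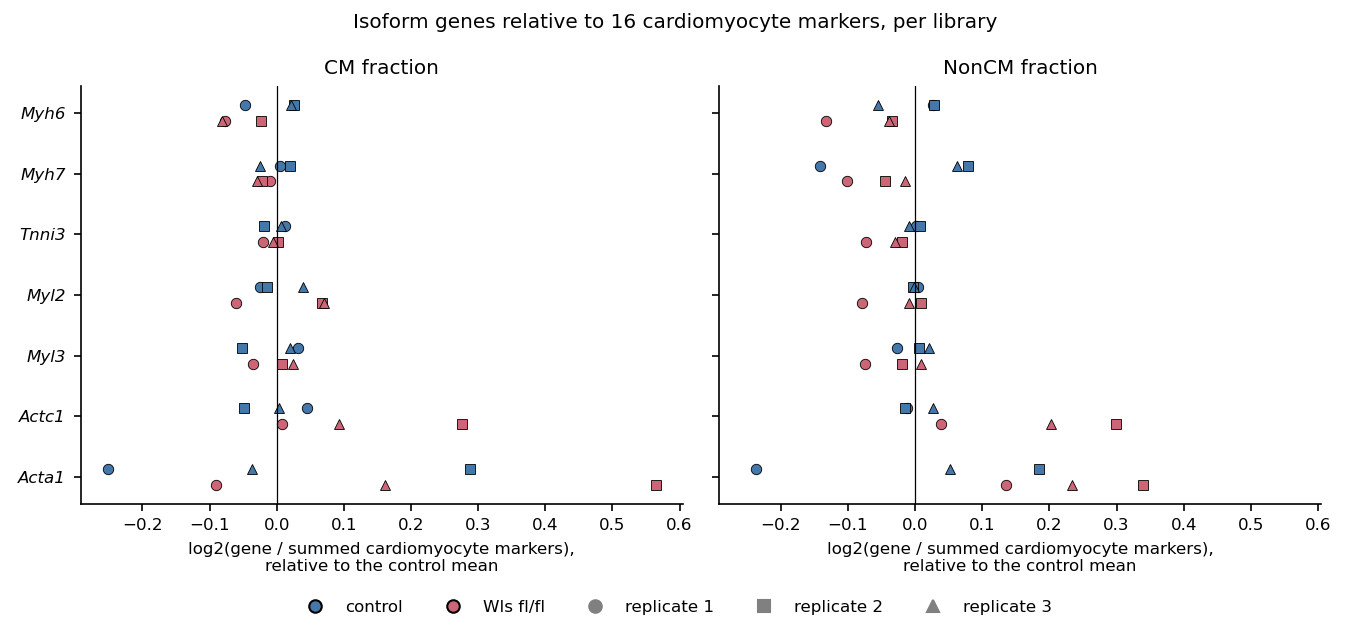
Log2 of each gene over the sum of 16 cardiomyocyte markers in the same library, set to 0 at the mean of the control libraries, for 7 members in each fraction (controls blue, Wls fl/fl red, symbols for replicates). In NonCM the 3 Actc1 values of Wls fl/fl libraries lie to the right of all control values, while Myh6, Myh7, Myl2 and Myl3 overlap.

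Isoform ratios within a library do not depend on how libraries were scaled, and none of the 10 comparisons by genotype stood apart. All 10 overlapped between genotypes, with exact permutation p-values of 0.2 to 1 and adjusted p-values of 1. Without replicate 3 the log2 differences were 0.01 for Myh7/Myh6, -0.36 for Tnni1/Tnni3, 0.08 for Acta1/Actc1, -0.51 for Myl7/Myl2 and -0.70 for Myl4/Myl3 in CM. In NonCM they were 0.07, 0.17, 0.08, -1.27 and -0.75 in the same order. Here a ratio is of normalized read counts, fetal or atrial member over adult or ventricular member, and is not corrected for length.

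Myh7 was 2.72%, 2.62% and 2.55% of Myh6 among CM controls, against 2.76%, 2.63% and 2.73% among CM Wls fl/fl libraries. In NonCM it was 2.26%, 2.63% and 2.76% among controls, against 2.60%, 2.53% and 2.59% among Wls fl/fl libraries. The slow heavy chain thus stayed near the same small share of the fast one in all 12 libraries, and the genotype differences were 0.04 (SE 0.03) and 0.01 (SE 0.09) on the log2 scale.

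Acta1 was 0.987%, 1.53% and 1.18% of Actc1 among CM controls, against 1.13%, 1.48% and 1.27% among CM Wls fl/fl libraries. The NonCM values were 1.03%, 1.39% and 1.23% among controls, against 1.29%, 1.24% and 1.23% among Wls fl/fl libraries. Replicate 2 was highest in each group but the last, and the log2 differences of 0.09 (SE 0.22) and 0.06 (SE 0.13) were smaller than their errors. Tnni1 was 0.0157% to 0.0290% of Tnni3 in CM and 0.0275% to 0.0588% in NonCM libraries, ratios that rest on 1 to 11 Tnni1 reads per library.

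Myl7 was 0.364%, 0.203% and 0.315% of Myl2 among CM controls, against 0.0465%, 0.788% and 0.206% among CM Wls fl/fl libraries. Its NonCM values were 0.929%, 0.609% and 0.673% among controls, against 0.0822%, 1.18% and 0.776% among Wls fl/fl libraries. Myl4 was 0.299%, 0.277% and 0.299% of Myl3 among CM controls, against 0.0517%, 0.607% and 0.190% among CM Wls fl/fl libraries. For Myl4 over Myl3 in NonCM the values were 0.670%, 0.553% and 0.682% among controls, against 0.123%, 1.06% and 0.746% among Wls fl/fl libraries. In each fraction the lowest and the highest value of both ratios were therefore Wls fl/fl libraries, replicates 1 and 2. The direction of both genotype differences rested on Wls fl/fl replicate 1, without which they were positive in both fractions. With single libraries left out they ranged from -1.55 to 0.49 for Myl7/Myl2 and from -1.56 to 0.22 for Myl4/Myl3 in CM, and from -1.52 to 0.40 and from -1.06 to 0.49 in NonCM.

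**Figure D4:**
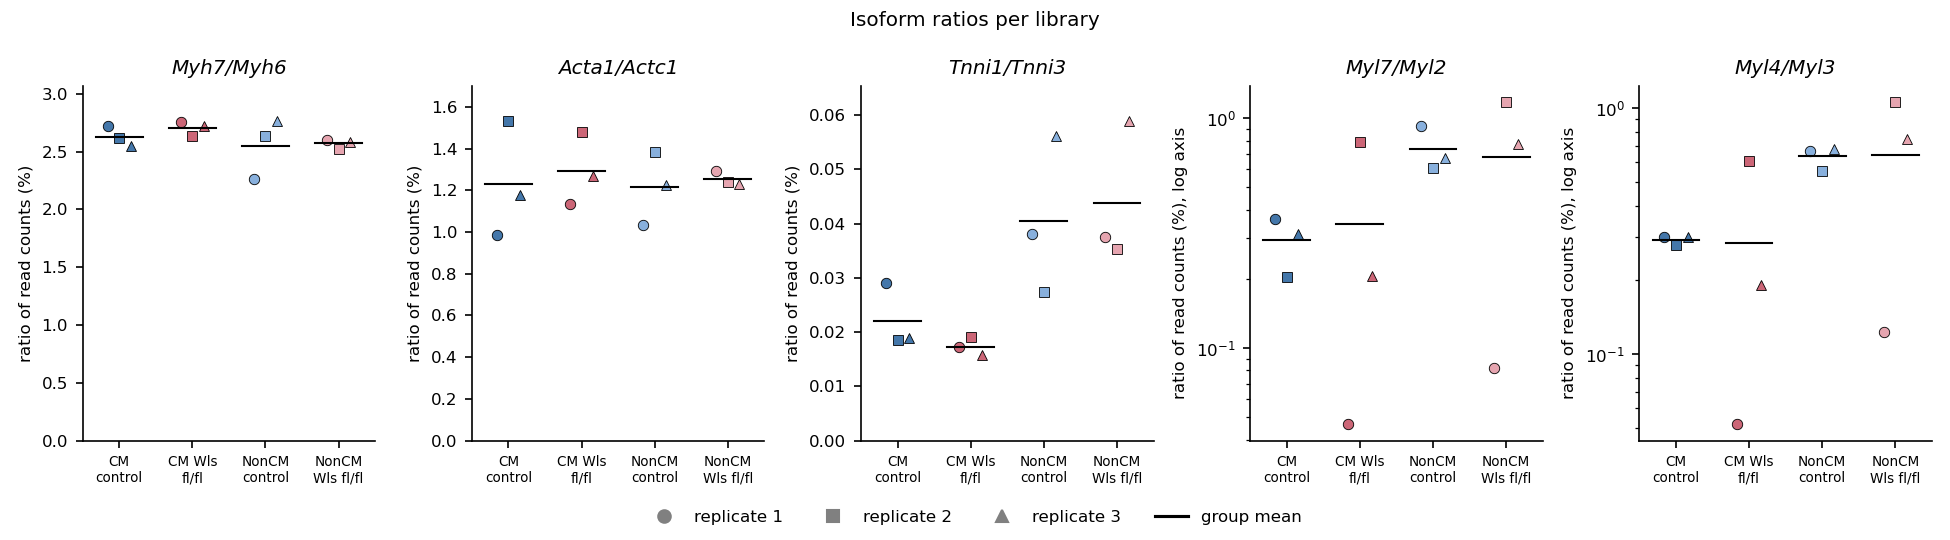
Ratio of normalized read counts in percent for the 5 pairs in each library, with linear axes from 0 for the first 3 pairs and log axes for the light chain pairs; symbols mark replicates and bars the group means. Myh7/Myh6 stays between 2.26% and 2.76%, and the Myl7/Myl2 and Myl4/Myl3 ratios of the control groups are higher in NonCM than in CM.

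Between fractions, the control libraries had their largest ratio differences in the light chains. Here Myl7 over Myl2 was 2.54-fold higher in NonCM than in CM (log2 1.34, SE 0.31) and Myl4 over Myl3 was 2.17-fold higher (log2 1.12, SE 0.10), with no overlap in either. Both had an exact permutation p of 0.1, the smallest possible, and 0.25 after adjustment over 10 comparisons. For Wls fl/fl the corresponding log2 differences were 1.10 (SE 1.68) and 1.34 (SE 1.41) and the fractions overlapped. Without replicate 3 of all groups the differences were 1.47 and 1.08 for control and 0.70 and 1.03 for Wls fl/fl libraries. Tnni1 over Tnni3 was higher in NonCM by 0.85 (SE 0.37, overlapping) in control and by 1.31 (SE 0.25, not overlapping) in Wls fl/fl libraries, or by 0.48 and 1.01 without replicate 3. Myh7 over Myh6 differed by -0.05 (SE 0.09, overlapping) in control and -0.07 (SE 0.02, not overlapping) in Wls fl/fl libraries. In Wls fl/fl libraries Tnni1 over Tnni3 and Myh7 over Myh6 also had an exact permutation p of 0.1, and 0.25 after adjustment. Acta1 over Actc1 differed by -0.01 (SE 0.22) and -0.04 (SE 0.11), with overlap in both.

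Within the Wls fl/fl groups the atrial light chains varied far more between libraries than any other member tested. The highest library was 19.4 times the lowest for Myl7 and 12.7 times for Myl4 in CM, and 14.0 and 8.17 times in NonCM, whereas in control groups the largest such factor was 1.84 for Myl7 and 1.29 for Myl4. The lowest values rested on 11 Myl7 reads (exact 95% Poisson interval 5.49 to 19.7) and 12 Myl4 reads (6.20 to 21.0) in CM, and on 25 (16.2 to 36.9) and 32 (21.9 to 45.2) in NonCM. The highest CM library held 241 Myl7 reads (212 to 273) and 172 Myl4 reads (147 to 200), so the spread exceeded counting error, which is all that these intervals cover.

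Other atrial genes were examined beside them. Sln, the small inhibitor of the calcium pump in atrial muscle, had normalized read counts of 10.2, 11.1 and 9.73 among CM controls, against 1.17, 33.3 and 7.77 among CM Wls fl/fl libraries. In NonCM it had 27.7, 22.1 and 23.2 and then 1.27, 35.9 and 20.9. Mybphl, an atrial myosin-binding protein, had 8.17, 6.17 and 10.7 and then 1.17, 21.9 and 4.53 in CM, and 11.1, 12.2 and 11.6 and then 1.27, 18.0 and 15.7 in NonCM. Both genes, chosen after their values were seen, thus had the same lowest and highest library as Myl4 and Myl7 in each fraction, with 1 or 2 reads in the lowest. In CM, Dkk3 had the same lowest and highest library. Stard10 shared its lowest library with Myl4 and Myl7 within each fraction, at 39.9 in CM and 41.3 in NonCM. The labels do not say whether these CM and NonCM libraries came from the same heart. Its control ranges were 61.7 to 73.0 in CM and 58.7 to 72.1 in NonCM, and its highest library was a control. In CM, 3 other genes of the list did not follow this order. Kcna5, a potassium channel gene, had 234, 269 and 243 among CM controls, against 273, 235 and 274 among CM Wls fl/fl libraries. Nr2f2, a transcription factor, had 141, 163 and 155 and then 161, 126 and 140. Nr2f1 had 13.6 to 17.3 among controls, against 21.1 and 15.6 in Wls fl/fl replicates 1 and 2. In these 3 genes Wls fl/fl replicate 1 was above replicate 2 in CM, whereas in NonCM it was below, with Kcna5 at 244 and 265, Nr2f2 at 293 and 311 and Nr2f1 at 22.9 and 32.6. Bmp10, another atrial gene, was at 0 in 9 of the 12 libraries. The summed level of the 9 atrial genes fixed as a list ranged from 775 to 933 for control and 681 to 883 for Wls fl/fl in CM, and from 1168 to 1192 for control and 958 to 1187 for Wls fl/fl in NonCM. Highest in that sum were Nppa, Kcna5 and Nr2f2 in CM (means of 263, 255 and 148) and Nr2f2, Kcna5 and Dkk3 in NonCM (314, 257 and 250). Sln and Mybphl had means of 12.2 and 8.77 in CM and 21.9 and 11.6 in NonCM, so the sum hardly reflects them. Which cells the reads of Kcna5, Nr2f1, Nr2f2 and Dkk3 came from was not tested, so these genes need not follow atrial tissue here. The part of atrial tissue in the spread of Myl4 and Myl7 was not tested.

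Nppa, the atrial natriuretic peptide that stressed ventricle also makes, differed from the pattern of Myl4 and Myl7 in NonCM and shared part of it in CM. In NonCM it read 255, 252 and 228 among controls, against 153, 152 and 138 among Wls fl/fl libraries, a fall by 0.73 (SE 0.09, limma adjusted p = 0.00362), with Wls fl/fl replicate 1 no lower than the others. In CM it read 255, 373 and 258 and then 160, 325 and 206, a change of -0.40 (SE 0.21, limma adjusted p = 0.644) with overlap. There Wls fl/fl replicate 1 was the lowest library, as for Myl4 and Myl7, but the highest was a control library. It was the only one of the 8 atrial genes tested in NonCM that passed.

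**Figure D5:**
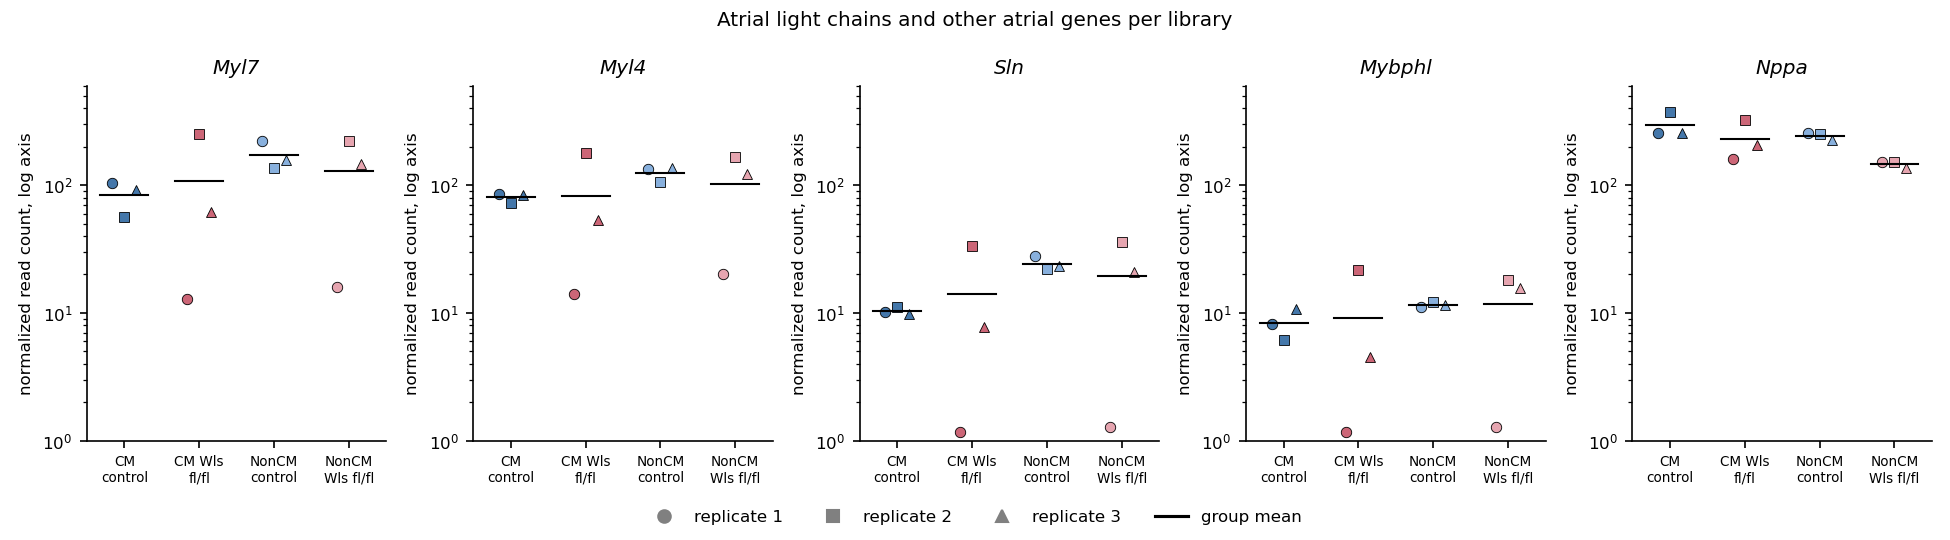
Normalized read count on log axes of Myl7, Myl4 and the atrial genes Sln, Mybphl and Nppa in each library; symbols mark replicates and bars the group means, and the fractions were scaled apart. Wls fl/fl replicate 1 is lowest for the first 4 genes in both fractions, and Nppa is lower in all 3 NonCM Wls fl/fl libraries than in the controls.

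Related genes of the sarcomere were read beside the members. Of 24 other filament isoforms, 15 reached the test in NonCM and 3 fell, namely Tnnt2, the tropomyosin-binding cardiac troponin, by 0.40 (limma adjusted p = 0.00505), Tnnc1, the calcium-binding cardiac troponin, by 0.28 (0.0137) and the tropomyosin Tpm1 by 0.29 (0.0432), and 0 rose. Their median was -0.13, against 0.02 over all genes. Of 24 structural genes 23 were tested, 11 fell and 0 rose, with a median of -0.27. The largest of the 4 named by rule were Myom2, down by 0.57 (limma adjusted p = 0.00138), and Tcap, down by 0.50 (0.00292), followed by Csrp3, a Z-disc LIM protein, at -0.39 (0.00515) and Myoz2, a calcineurin-binding Z-disc protein, at -0.37 (0.00775). Myom2 and Tcap thus had the 2 lowest p-values of that list in both fractions.

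Fetal and adult isoforms of other muscle systems were read in the same way. Of 10 adult isoforms 5 fell in NonCM, among them the ADP/ATP carrier Slc25a4 by 0.33 (limma adjusted p = 0.00515), the cytochrome oxidase subunit Cox6a2 by 0.36 (0.00670), the calcium release channel Ryr2 by 0.27 (0.0262) and the calcium pump Atp2a2 by 0.25 (0.0332). Cox6a2, Ryr2 and Atp2a2 are also in the cardiomyocyte marker list. Of 11 fetal isoforms 2 fell, Nppa and the cytochrome oxidase subunit Cox7a2 by 0.21 (0.0378), and 0 rose. Of 4 ventricular genes 1 fell, Lbh by 0.33 (0.0250). Adult and fetal isoforms thus both included genes that fell and none that rose in NonCM. With replicate 3 removed from both genotypes none of these calls held, since limma then called 0 genes in NonCM.

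Acta1, several troponins and the fast myosins are also genes of skeletal muscle, whose 12 markers summed to 0.000662% to 0.000951% of reads for control and 0.000570% to 0.000859% for Wls fl/fl in CM. In NonCM the sums were 0.000690% to 0.000881% for control and 0.000987% to 0.00162% for Wls fl/fl, which did not overlap. Of the 4 of these markers tested in NonCM all were higher, with a median change of 0.78, and 0 passed. For Tnni2 and Myh4 this rested on the shallow NonCM control replicate 1, at normalized read counts of 0 and 5.54. The other controls had 19.1 and 17.4 for Tnni2, against 13.3 to 17.8 among Wls fl/fl libraries. For Myh4 they had 14.5 and 15.2, against 13.3 to 14.9. Tnnt3 had 6.52 to 11.1 among controls, against 18.6 to 21.6, and Myh1 overlapped. The part of skeletal muscle in the values of the members was not tested. The regulators Myod1, Myog and Myf6 were at 0 in all CM libraries, and each had a read in 1 NonCM library.

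Across the 12 libraries, each centred on its fraction, some members varied together. Pearson r on log2(value + 1) was 0.98 for Tnni3 and Myl3, 0.95 for Myh6 and Tnni3, 0.96 for Myl2 and Myl3 and 0.84 for Myh6 and Myh7. It was 0.99 for Myl4 and Myl7, and 0.56 for Acta1 and Actc1, whereas Myh6 and Acta1 had 0.13. These are descriptions over 12 libraries, in each of which all genes share a size factor and, within NonCM, the amount of cardiomyocyte RNA.

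Of 8418 other genes with a mean of 50 or more in both tables, those most like the members were, for Myh6, Map1lc3a (r = 0.97) and Slc25a4 (0.97), for Tnni3, Eef1a2 (0.99) and Des (0.99), for Myl2, Acadm (0.97) and Tnnc1 (0.97), and for Myl3, Acadm (0.98) and Actn2 (0.98). For Myh7 they were Cacna1c and Macrod1 (0.97 each). The actins had Ubr4 (0.93) and Zbtb20 (0.91) for Acta1 and Ube2d1 (0.91) and Dlst (0.90) for Actc1. For the atrial light chains Mrps16 came first (0.93 with Myl4, 0.95 with Myl7), followed by Gm6969 (0.93) for Myl4 and Rad17 (0.93) for Myl7. Des, Tnnc1 and Actn2 encode the muscle intermediate filament, a troponin and the Z-disc actinin. Myl4 and Myl7 had no sarcomeric gene among their nearest neighbours by this rule, which leaves out Sln and Mybphl for their low counts.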

How the data were processed

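Total RNA of 12 libraries (4 groups of 3) was sequenced. The submitters' processing notes name STAR, DESeq2 and the build mm10, without versions, and the sources used here give neither the annotation nor the counting tool. Each fraction has 1 deposited table of signal values, normalized read counts, which the authors obtained through a size factor per library. Every value was a whole multiple of that library's step to within 0.01 reads (100% of values), so reads were recovered from it. Per the file headers the tables also hold the authors' log2 fold changes, p-values and test statistics (a score), which were not used here as results.

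The main test was limma 3.58.1 (R 4.3.3, eBayes with trend) within each fraction, on log2(value + 1), for genes whose mean was at least 10, Wls fl/fl minus control, with Benjamini-Hochberg adjustment over all genes tested. Fold changes on that scale understate those of low genes. Fractions were compared by a quasi-likelihood interaction in edgeR 4.0.16 on recovered reads of all 12 libraries. Ratios and marker-relative levels had exact two-sided permutation tests (scipy 1.17.1), which cannot go below 0.1 with 3 against 3 libraries. The code was tested on simulated data.

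Lengths and positions came from GENCODE M21 (GRCm38) and promoters from RefSeq (GRCm38.p6), with a window for all 10 members. For each list, at most 4 called genes per fraction were named by smallest p, or the 2 of smallest p where none was called, and for each member the 2 most correlated genes. The members and lists were chosen with earlier results of these data known. Alternatives were TMM and upper-quartile scaling, equal summed cardiomyocyte markers, pseudocounts of 0.5 and 5, a minimum mean of 50 or none, edgeR, DESeq2 1.42.0, limma-voom (interaction), each library left out, and replicate 3 left out. The edgeR fit without replicate 3 was added after seeing the data.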

Additional observations from a re-analysis of the deposited data

Results flagged for a closer look

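The genotype change differed between the fractions by an interaction test for 5 of the 9 members tested (edgeR, 3 libraries in each of 4 groups). The same test called 1.41% of 13993 genes. The change in NonCM minus that in CM was -0.32 for Myh6, -0.35 for Myh7, -0.35 for Tnni3, -0.37 for Myl2 and -0.34 for Myl3 on the log2 scale, with adjusted p-values of 0.0299 to 0.0332. None of the 5 passed without replicate 3 of all groups, and 0 to 5 members passed with single libraries left out. The cardiomyocyte markers moved with them, at a median change of -0.27 in NonCM and 0.06 in CM, and their part in the difference was not tested.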

How the results depend on the processing

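No paired analysis was possible because the labels do not tie a CM library to a NonCM library, and no numbers are shared between genotypes. The 20 ratio comparisons moved by less than 1 SD under every alternative run, an SD that is wide for the light chains. With single libraries left out the genotype difference turned sign for Acta1/Actc1 (-0.06 to 0.25), Myl7/Myl2 and Myl4/Myl3 in CM and for Myh7/Myh6 (-0.07 to 0.07), Tnni1/Tnni3 (-0.12 to 0.40), Acta1/Actc1 (-0.06 to 0.16), Myl7/Myl2 and Myl4/Myl3 in NonCM. Between fractions that of Myh7/Myh6 (-0.11 to 0.04) and Acta1/Actc1 (-0.16 to 0.16) turned sign in control, and that of Acta1/Actc1 (-0.13 to 0.06) in Wls fl/fl libraries, where Myl7/Myl2 ranged from 0.07 to 2.28 and Myl4/Myl3 from 0.44 to 2.29. In CM, 11 genes were called, against 41 with no filter, 17 by edgeR, 25 by DESeq2, 2 without replicate 3 of both genotypes by limma and 2 by edgeR, and 5 to 18 with single libraries left out. In NonCM, 598 genes were called, against 3560 with equal summed cardiomyocyte markers, 1485 by edgeR, 0 without replicate 3 by limma (1242 at an unadjusted p under 0.05) and 38 by edgeR, and 77 to 1634 with single libraries left out. The NonCM split of 328 higher and 270 lower calls became 264 and 369 with upper-quartile scaling. Members called in NonCM went from 5 to 0 with equal summed markers and without replicate 3 by limma and by edgeR, and were 0 to 5 with single libraries left out. TMM, upper-quartile scaling, edgeR, DESeq2, both pseudocounts and a mean of 50 kept the call of the 5, while Myh6 lost it with no filter (limma adjusted p = 0.129). The interaction called 198 genes, against 326 by limma-voom, 1 without replicate 3 and 0 to 296 with single libraries left out, and 5 members, against 0 without replicate 3 and 0 to 5 with single libraries left out.

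Some changes that had not passed turned sign. In CM these were Myh6 without replicate 3 (0.0094 by limma, 0.0073 by edgeR), Myh7 (-0.020), Tnni3 (-0.0080) and Myl3 (-0.0011) with equal summed markers, Myl4 by DESeq2 (0.027) and by edgeR without replicate 3 (0.31), and Myl7 by edgeR (0.31), DESeq2 (0.36) and edgeR without replicate 3 (0.72). In NonCM they were Acta1 (0.24) and Actc1 (0.18) with equal summed markers and Acta1 without replicate 3 (0.020). With single libraries left out, changes in CM ranged from -0.067 to 0.0011 for Myh6, -0.0067 to 0.036 for Myh7, -0.00065 to 0.047 for Tnni3, -1.50 to 0.28 for Myl4 and -1.48 to 0.61 for Myl7. In NonCM they ranged from -0.12 to 0.049 for Acta1, -1.30 to 0.19 for Myl4 and -1.76 to 0.10 for Myl7, and in the interaction from -0.86 to 0.77 for Myl4 and -1.30 to 0.69 for Myl7. The cause was not tested. Depth limits Tnni1, with 1 to 11 reads per library, and values of low genes in NonCM control replicate 1.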
